A study of Homo sapiens with 4 samples.

Results

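The genes described here are 10 NF-kB-inducible genes: the chemokines CXCL1, CXCL2, CXCL3, CXCL8 and CCL20, the acute-phase protein LCN2, the feedback inhibitors TNFAIP3 and NFKBIA, the survival factor BIRC3 and the adhesion receptor ICAM1. They were followed across 4 samples of HCCLM3, a human hepatocellular carcinoma cell line, sorted magnetically for EpCAM, an epithelial adhesion molecule. Every probe set whose annotated symbol was 1 of the 10 was taken. That gave 16 of the 54675 probe sets of the array for 9 of the 10 genes, out of 19775 genes in all, and BIRC3 was not analysed here because no probe set was listed for it. The genes were selected on the log2 ratios between these same arrays, so their values are a description and nothing about them is tested.

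The EpCAM-positive fraction was given either antagomir-429, a cholesterol-linked inhibitor of miR-429 that was simply added to serum-free medium, at 40 µM, or a negative-control (NC) antagomir at the same dose. The EpCAM-negative fraction was transfected with either a mimic of miR-429, an RNA duplex that adds this microRNA to the cell, at 100 nM, or an NC mimic at that dose. Treatment lasted 4 days, and each of the 4 groups was 1 Affymetrix U133 Plus 2.0 array of the same line, with no statement of how many cultures it drew on. The series sought targets of miR-429, which shares its seed with miR-200b and miR-200c.

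NF-kB is a family of dimeric transcription factors held in the cytoplasm by inhibitor proteins until TNF, interleukin-1 or microbial products activate the IKK kinases, which mark the inhibitor for degradation. The freed dimer switches on chemokines and adhesion molecules that recruit leukocytes, and at the same time its own inhibitors, NFKBIA and TNFAIP3, which close a feedback loop. In the liver these genes are known from acute-phase responses and inflammation-driven carcinogenesis.

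The mature microRNAs are shown because the reagents copy or block the first of them, with the seed, bases 2 to 8, in capitals. Their genes lie at chr1:1169055-1169076 (plus), chr1:1167160-1167181 (plus) and chr12:6963742-6963764 (plus), in the order shown. All sequences are from RefSeq tables of GRCh38.p14.
hsa-miR-429: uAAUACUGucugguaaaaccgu
hsa-miR-200b-3p: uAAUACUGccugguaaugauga
hsa-miR-200c-3p: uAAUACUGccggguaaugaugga

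The stretches around the kB motif are shown because they let the near-identical chemokine promoters be set beside promoters of genes that had other values on the same arrays. All 10 genes had 1 window in the table, from 250 bases before to 50 after a transcript start. Capitals mark the bases covered by a match to the 10-base kB consensus or to the shorter motif GGAANTTCC, each searched on both strands. The windows of CXCL1, CXCL2 and CXCL3 lie at chr4:73869294-73869344 on the plus strand, chr4:74099243-74099293 on the minus strand and chr4:74038738-74038788 on the minus strand. That of CXCL8 is chr4:73740458-73740506 (plus), that of CCL20 chr2:227813743-227813792 (plus) and that of LCN2 chr9:128149258-128149307 (plus). The others are TNFAIP3 at chr6:137867172-137867221 (plus), NFKBIA at chr14:35404801-35404850 (minus) and ICAM1 at chr19:10270914-10270962 (plus). All lie before the transcript start, in the promoter, and are written 5′ to 3′ in the direction of the gene.
CXCL1: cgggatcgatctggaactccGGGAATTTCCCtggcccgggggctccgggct
CXCL2: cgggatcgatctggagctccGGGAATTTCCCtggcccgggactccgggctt
CXCL3: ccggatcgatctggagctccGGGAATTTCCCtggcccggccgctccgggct
CXCL8: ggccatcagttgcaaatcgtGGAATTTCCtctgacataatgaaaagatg
CCL20: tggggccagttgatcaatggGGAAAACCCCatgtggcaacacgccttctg
LCN2: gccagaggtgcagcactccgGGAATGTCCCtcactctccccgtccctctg
TNFAIP3: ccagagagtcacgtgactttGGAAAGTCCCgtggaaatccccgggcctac
NFKBIA: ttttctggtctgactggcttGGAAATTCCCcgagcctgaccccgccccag
ICAM1: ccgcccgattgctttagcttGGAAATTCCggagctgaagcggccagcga

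CXCL1, CXCL2 and CXCL3 carried the same 11 capital letters at almost the same distance from the start, beginning 79, 78 and 79 bases before it. Set base against base without gaps, the CXCL1 and CXCL3 stretches were identical at 47 of 51 positions, CXCL1 and CXCL2 at 43, and CXCL2 and CXCL3 at 42. A base missing from a stretch puts those after it out of step, so these counts do not rank the stretches by likeness. The kB consensus was found in 8 of the 10 windows and in 5.72% of the first windows of all 27305 genes in the table. GGAANTTCC, which overlaps the consensus in 4 of these promoters, was found in 6 of 10 and in 0.967%. Either motif or both were found in 10 of 10 windows, against 6.43% of all genes, and against 19 of the 89 other pathway genes that had a window. A second TNFAIP3 match to the consensus covers bases 55 to 46 before the start and is left in lower case above. The AP-1 motif TGANTCA, which binds Fos and Jun dimers, was found in the windows of CXCL8 and LCN2 and in 7.76% of all. These genes are known NF-kB targets, so the matches describe the promoters and say nothing of binding in these cells.

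**Figure D1:**
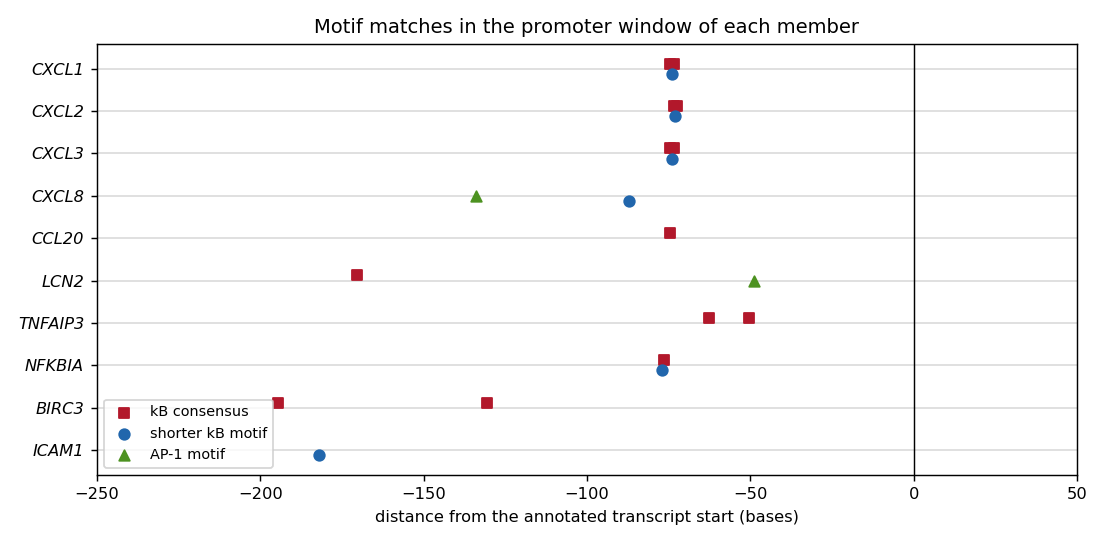
Positions of motif matches in the promoter window of each gene, with the distance from the transcript start in bases on the x axis and a row for each gene. Squares are the kB consensus, circles the shorter kB motif and triangles the AP-1 motif. The matches of CXCL1, CXCL2 and CXCL3 sit at almost the same place, and those of LCN2 and ICAM1 lie farther from the start.

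The values are MAS5 signals as the authors deposited them, and every array had the same 2% trimmed mean of 500.1. A signal of 52.9, the median over probe sets of their mean, is called the floor, and the 13180 genes whose brightest probe set averaged at or above it are called expressed. All 9 measured genes passed, CCL20 although its signal on the antagomir-429 array was under the floor, and 12 of their 16 probe sets did. A gene's value is that of its brightest probe set unless another is named. With 1 array per group no difference has a replicate check and none has a p-value. As a measure of how far single genes scatter, the robust SD of the log2 ratio was taken over expressed genes of like signal. The genes were split by signal into 4 equal bins of 3295. This SD is called the scatter and is given beside ratios of the members and of some pathway genes.

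Some facts of the arrays touch every value below. EPCAM had a signal of 1235 on the EpCAM-positive NC antagomir array and 1106 on the EpCAM-negative NC mimic array, a log2 ratio of 0.16, so its mRNA hardly separated the sorted controls after culture. Within the pairs the EPCAM log2 ratio was 1.80 with the miR-429 mimic (3838 against 1106 with the NC mimic) and -0.44 with antagomir-429 (913 against 1235 with the NC antagomir), the same signs as most of the members, and its part in their values was not tested. Of the simple-epithelial keratins, KRT8 and KRT18 had signals between 28365 and 50498, and KRT19 was under the floor on all 4 arrays. Of the liver products, albumin was under the floor on all 4 arrays, the fetal protein AFP lay between 91.5 and 119 and APOA1 between 66.2 and 91.7, and TTR, SERPINA1 and APOB passed the floor on some arrays only. For the miR-429 mimic array over the NC mimic array, the median log2 ratio was -0.89 over the poly-A spike-ins and -0.41 over the hybridisation controls. Actin probe sets at the 3′ and 5′ ends differed 2.63-fold with the miR-429 mimic and 3.41-fold on the NC mimic array. In the antagomir pair the spike-in median was 0.06, and the actin ratio was 3.07 with antagomir-429 and 3.12 on the NC antagomir array. For the NC antagomir array over the NC mimic array, the median was -0.44 over the poly-A spike-ins and -0.21 over the hybridisation controls. The part of these array differences in the members' values was not tested. Of 25 measured markers of leukocytes, endothelium and fibroblasts, 14 were expressed, with no marker at 0 throughout. Of the leukocyte markers PTPRC, CD3G and CD14 were under the floor on all 4 arrays. LAPTM5, CD3D, CD3E, CD79A and S100A8 were above it on all 4, at signals between 53.7 and 206. The other leukocyte markers passed the floor on some arrays only. At or above the floor were 13 of the 25 with antagomir-429, 16 with the NC antagomir, 17 with the miR-429 mimic and 15 on the NC mimic array. Leaving out the collagen COL1A1, which lay between 7162 and 10500.0, their summed signal was 1570 with antagomir-429, 1744 with the NC antagomir, 2048 with the miR-429 mimic and 1858 on the NC mimic array. Its part in the results below was not tested. In such bulk samples, fewer cells of a type and less RNA per cell cannot be told apart.

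Across the 4 arrays most of the 9 measured genes had the same arrays at the ends of their order. The miR-429 mimic array was the highest for 8 of them (28.6% of expressed genes), and the antagomir-429 array the lowest for 8 (22.1%). Both held for CXCL2, CXCL8, CCL20, LCN2, TNFAIP3, NFKBIA and ICAM1, where 8.25% of expressed genes did the same. The exceptions were CXCL1, highest with the NC mimic, and CXCL3, lowest with the NC antagomir. Some end places rest on log2 gaps within the scatter. With the mimic these were 0.085 for CXCL8 (scatter 0.53) and 0.21 for CCL20 (0.82). With the antagomir it was -0.08 for TNFAIP3 (0.26). Between the highest and the lowest array CCL20 spanned at least 5.42-fold (its lowest signal taken at the floor), CXCL8 5.29-fold and TNFAIP3 3.07-fold, while NFKBIA spanned 1.85-fold and CXCL1 1.54-fold. Nothing is read from these shares, because the genes were chosen with these ratios known.

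**Figure D2:**
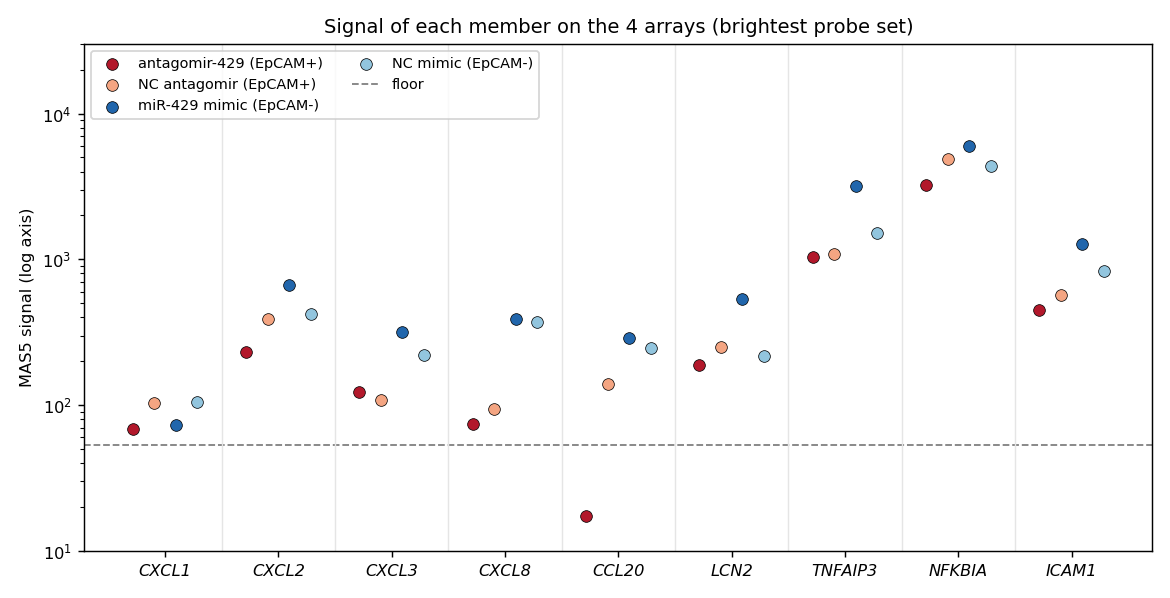
MAS5 signal on a log axis for the brightest probe set of each of the 9 measured genes, with 1 point for each array and the floor of 52.9 as a dashed line. The dark blue miR-429 mimic point is the highest for 8 genes, and the dark red antagomir-429 point of CCL20, at 17.3, is the only one under the floor.

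The neutrophil chemokines CXCL1, CXCL2, CXCL3 and CXCL8, which act on the receptors CXCR1 and CXCR2, did not share a pattern. CXCL2 was the brightest. Its signal was 232 with antagomir-429 against 387 with the NC antagomir, a ratio (log2) of -0.74 beside a scatter of 0.41. With the miR-429 mimic it was 672 against 419.7 with the NC mimic, a ratio of 0.68 beside a scatter of 0.53. The ratios therefore ran in opposite directions in the 2 comparisons, and both were larger than the scatter. This probe set carries the suffix x, which Affymetrix gives to probes that may also bind other transcripts, and CXCL1 and CXCL3 are close paralogs, so the value may not be that of CXCL2 alone. The other CXCL2 probe sets were under the floor on every array, between 2.4 and 52.6, and the median over the 3 was -0.33 with the antagomir and -0.14 with the mimic, so the direction with the mimic turned.

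CXCL3 differed more between the control arrays than within either pair. Its signal was 123 with antagomir-429, 108 with the NC antagomir, 315 with the miR-429 mimic and 221 on the NC mimic array. Both EpCAM-positive arrays were lower than both EpCAM-negative arrays. The log2 ratio was 0.19 with the antagomir and 0.51 with the mimic, each within the scatter of 0.41 and 0.53, but -1.03 for the NC antagomir array over the NC mimic array.

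CXCL8, interleukin-8, showed that split more widely. Its brighter probe set had 73.9 with antagomir-429 and 94.7 on the NC antagomir array, against 391 with the miR-429 mimic and 369 on the NC mimic array. Within each pair the arrays were close, with log2 ratios of -0.36 and 0.09, and the mimic ratio was -0.02 when arrays were centred on their medians. Between the control arrays the ratio was -1.96, or 3.89-fold lower on the NC antagomir array, beside a scatter of 0.50. Of 3295 genes of like signal 8 had a more negative one. With the median over the 2 CXCL8 probe sets the ratio was -1.40. The brighter probe set carries the suffix x, as that of CXCL2 does, so its value may not be that of CXCL8 alone. The dimmer CXCL8 probe set had 7.3 with antagomir-429 and 27.0 on the NC antagomir array, 87.0 with the miR-429 mimic and 48.0 on the NC mimic array. It was thus above the floor only with the miR-429 mimic, at least 1.65-fold higher than with the NC mimic, where the brighter probe set had 1.06-fold.

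CXCL1 alone among the 9 was not higher with the mimic than with its control. Its only probe set had 68.1 with antagomir-429 against 104 with the NC antagomir, and 73.5 with the miR-429 mimic against 105 with the NC mimic. It was lower with either reagent, by log2 ratios of -0.61 and -0.52, both within the scatter of 0.79 and 0.82 at this dim signal. The control arrays differed by -0.02. The mimic and antagomir ratios of CXCL3, whose stretch matched that of CXCL1 at 47 of 51 positions, were within the scatter too. Their signs differed from those of CXCL1, with 0.51 against -0.52 with the mimic and 0.19 against -0.61 with the antagomir. Whether these paralogs differ was not tested. Between the control arrays CXCL3 had -1.03 beside a scatter of 0.50, where CXCL1 had -0.02 beside 0.82.

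CCL20, the ligand of CCR6 on T helper and dendritic cells, was the only 1 of the 9 past 2-fold with the antagomir. Its signal was 17.3 with antagomir-429, 139 with the NC antagomir, 286 with the miR-429 mimic and 248 on the NC mimic array. The antagomir-429 array was under the floor, which makes the gene at least 2.62-fold lower there than with the NC antagomir, which is -1.39 on the log2 scale with its signal set at the floor. The ratio as measured, -3.00, rests on a value under the floor, and the scatter in this dimmest bin was 0.79. With the mimic the ratio was 0.21, within the scatter of 0.82. Between the control arrays it was -0.84, also close to the scatter. CCL20 had 1 probe set, so no other probe set bears on that value.

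LCN2, lipocalin 2, binds bacterial siderophores and is secreted in acute-phase responses. Of the 9 genes it had the highest ratio with the mimic, at 537 with the miR-429 mimic against 216 with the NC mimic, which is 2.49-fold or 1.32 on the log2 scale beside a scatter of 0.53. In its bin 59 of 3295 genes had a higher ratio. In EpCAM-positive cells it was 188 with antagomir-429 against 249 with the NC antagomir, a ratio of -0.41 that lies within the scatter of 0.41. The control arrays differed by 0.21, so unlike CXCL8 it was not lower on the NC antagomir array.

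Of the feedback inhibitors, TNFAIP3 (A20), a ubiquitin-editing enzyme that shuts off signalling to IKK, was higher with the mimic by both of its probe sets. The brighter had 3193 with the miR-429 mimic against 1508 with the NC mimic, 2.12-fold or 1.08 on the log2 scale, and the other 1046 with the miR-429 mimic against 462 with the NC mimic, or 1.18. The scatter at this signal was 0.46, and 51 of 3295 genes in the bin had a higher ratio than the brighter probe set. In EpCAM-positive cells the arrays were nearly alike. The brighter probe set had 1040.0 with antagomir-429 against 1096 with the NC antagomir (-0.08), and the other 323 with antagomir-429 against 365 with the NC antagomir (-0.18), beside a scatter of 0.26. Here the mimic and antagomir comparisons differed in size as well as sign.

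NFKBIA, which encodes the inhibitor IkB-alpha and was the brightest of the 9, had the reverse balance. It was 3215 with antagomir-429 against 4852 with the NC antagomir, 1.51-fold lower or -0.59 on the log2 scale. That is below 2-fold, but at this brightness the scatter was 0.15, and 7 of 3295 genes in the bin had a more negative ratio. With the miR-429 mimic it was 5953 against 4401 with the NC mimic, a ratio of 0.44 beside a scatter of 0.36. Between the control arrays it was 0.14, which turned to -0.22 with the median over its probe sets. A second NFKBIA probe set was above the floor only on the NC mimic array, with 20.5 with the miR-429 mimic against 64.8 with the NC mimic, and was thus at least 1.22-fold lower with the mimic, the other direction from the bright one, and the median over both was -0.61. In EpCAM-positive cells it was under the floor on both arrays, at 13.5 with antagomir-429 and 43.4 on the NC antagomir array.

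ICAM1, the endothelial and epithelial receptor for leukocyte integrins, had 3 probe sets above the floor on every array. By the brightest it was 448 with antagomir-429 against 566 with the NC antagomir (-0.34, scatter 0.26) and 1269 with the miR-429 mimic against 831 with the NC mimic (0.61, scatter 0.46). The next had 442 with antagomir-429 against 454 with the NC antagomir (-0.04), and 700.0 with the miR-429 mimic against 575 with the NC mimic (0.28). The dimmest had 144 with antagomir-429 against 279 with the NC antagomir (-0.96), and 351 with the miR-429 mimic against 263 with the NC mimic (0.42). All 3 had the same sign within each comparison, with sizes that spread from -0.04 to -0.96 in the antagomir pair. Over the control arrays they did not share a sign, at -0.56 (brightest), -0.34 and 0.09.

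**Figure D3:**
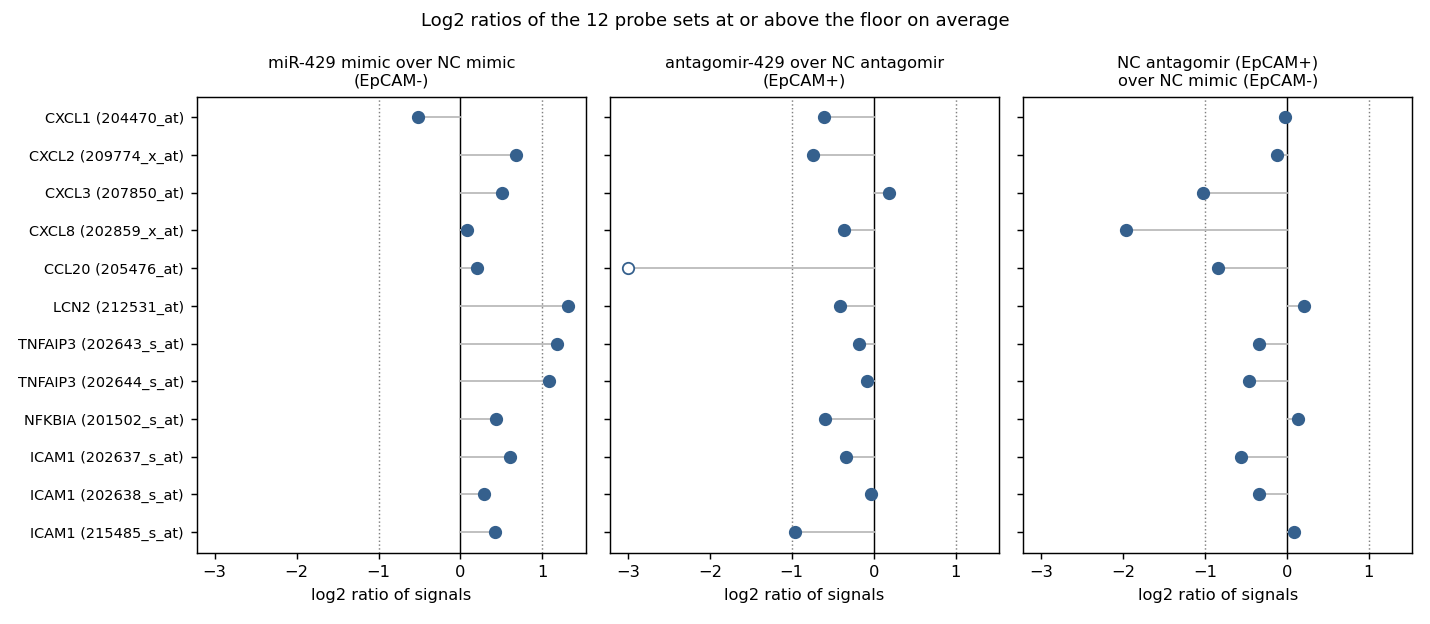
Log2 ratio of signals for the 12 probe sets that averaged at or above the floor, in the 3 comparisons, with dotted lines at 2-fold and an open circle where 1 array was under the floor. LCN2 and both TNFAIP3 probe sets lie past 2-fold with the mimic, CCL20 with the antagomir, and CXCL3 and CXCL8 between the control arrays.

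Counted over the 9 measured genes, LCN2 and TNFAIP3 were past 2-fold higher with the miR-429 mimic than with the NC mimic, 2 of 9 beside 5.25% of expressed genes, and 0 were past 2-fold lower (3.76%). With arrays centred on their medians the count was 1, as TNFAIP3 had 0.97. Their median log2 ratio was 0.51, against -0.00 over all expressed genes, and 8 of 9 were above 0 (49.9%) and 1 below (50.1%), where CXCL8 turned with median centring. With the median over probe sets 6 were above 0 and 3 below, as CXCL2 and NFKBIA turned. With antagomir-429, 0 were at least 2-fold higher than with the NC antagomir (3.72%) and 1 lower (3.53%), the median was -0.41 against 0.01, and 8 of 9 were below 0 (48.9%). With the median over probe sets 3 were past 2-fold lower, CCL20, CXCL8 and NFKBIA, the last 2 through probe sets under the floor. Opposite signs in the 2 comparisons, which share no array, were seen for 7 of 9, higher with the mimic and lower with the antagomir (22.0%). CXCL2, NFKBIA and CXCL8 are among those 7 and leave them under the settings that turn their mimic ratio. These counts repeat the ratios by which the genes were chosen.

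In the mimic comparison the ratio moved with gene span, the genomic length of the gene, and the part of span in the members' values was not tested. Among the 8130 brighter genes, those in the shortest of 5 equal span bins, where CXCL2, LCN2 and NFKBIA lie, had a median log2 ratio of -0.24, and the next bin, with TNFAIP3 and ICAM1, -0.14. The longest had 0.27. In the antagomir comparison the same bins had medians of -0.02, -0.01 and 0.04.

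**Figure D4:**
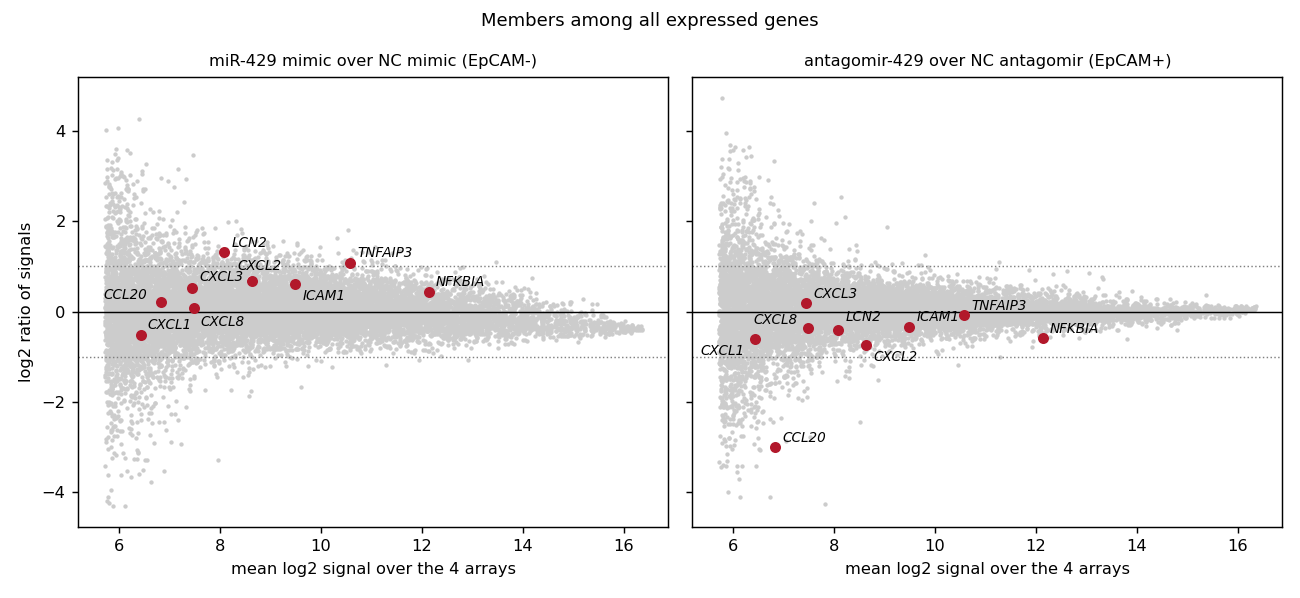
Log2 ratio of signals against mean log2 signal over the 4 arrays for all 13180 expressed genes (grey) and the 9 measured genes (red), with dotted lines at 2-fold. With the mimic LCN2 and TNFAIP3 lie at the upper edge for their signal, and with the antagomir NFKBIA and, as measured, CCL20 lie at the lower edge.

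The control arrays differed in sort, reagent and delivery at once, and these cannot be told apart. Of the 9 genes 2, CXCL3 and CXCL8, were at least 2-fold lower on the NC antagomir array than on the NC mimic array (4.7% of expressed genes) and 0 were higher (3.62%), with a median of -0.46 against -0.02 over all expressed genes. In all 7 were below 0 (52.2%) and 2 above (47.8%), though CXCL1, at -0.02, turned with quantile normalization. It uses 1 control array of each of the other comparisons, so its ratios are tied to theirs. The mimic values of some genes moved with the choice of control. Against the NC antagomir array in place of the NC mimic array, CXCL8 had 2.05, CXCL3 1.54, ICAM1 1.17 and CCL20 1.05. With that control 6 of 9 were at least 2-fold higher, beside 706 of the 13180 expressed genes. LCN2 (1.11) and TNFAIP3 (1.54) were past 2-fold against either control. With the NC mimic array as the control of antagomir-429, all 9 were below 0. CXCL8 had -2.32 and CCL20 -3.845 as measured, on a signal under the floor. ICAM1 had -0.89, CXCL2 -0.86, CXCL3 -0.84, CXCL1 -0.63, TNFAIP3 -0.54, NFKBIA -0.45 and LCN2 -0.20.

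The rest of the pathway was described by a list of 114 genes, chosen with earlier results known, of which 104 had a probe set and 76 were expressed. With the mimic 4 of 76 were past 2-fold higher beside 5.25% of all expressed genes, and 1 past 2-fold lower (3.76% of all), with a median log2 ratio of 0.15, which was 0.04 with median centring. With the antagomir 0 of 76 were past 2-fold in either direction and the median was 0.02. Between the control arrays 0 were past 2-fold higher (3.62% of all) and 4 lower on the NC antagomir array (4.7% of all), with a median of -0.24.

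Upstream, TNF itself was under the floor on all 4 arrays, at 7.3 to 19.4, and of the 9 listed ligands only IL1B and LTB were expressed. The receptors that the member chemokines act on, CXCR1, CXCR2 and CCR6, and the decoy receptor ACKR1 were all under the floor. Of the receptors for activating ligands 8 were expressed and 0 were past 2-fold in any of the 3 comparisons, with medians between -0.15 and -0.02. RELA, the main activating subunit, was nearly the same everywhere, at 4094 with antagomir-429, 4099 with the NC antagomir, 4533 with the miR-429 mimic and 4483 on the NC mimic array. NFKB1, which encodes p50 and is itself NF-kB-inducible, was 1688 with the miR-429 mimic against 1004 with the NC mimic (0.75), and 1087 with antagomir-429 against 1128 with the NC antagomir (-0.05). TNFAIP3 had the same signs with larger ratios.

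Among adaptors and kinases 2 of 18 were past 2-fold higher with the mimic (5.25% of all expressed genes) and 1 past 2-fold lower (3.76%). TRAF3, an inhibitor of the non-canonical pathway, had 688 with the miR-429 mimic against 278 with the NC mimic (1.31), though the median over its 2 probe sets was 0.90. TAB2, which tethers the kinase TAK1 to ubiquitin chains, was also higher, at 338 with the miR-429 mimic against 149.7 with the NC mimic (1.17). TAB1, another TAK1-binding protein, was lower, at 72.2 with the miR-429 mimic against 183 with the NC mimic (-1.34). It lies in the dimmest bin, where the scatter was 0.82 and 12.1% of genes were past 2-fold lower with the mimic. CHUK, the kinase IKK-alpha, had 67.7 on the NC antagomir array against 194 on the NC mimic array (-1.52). It lies in the same bin, where the scatter between the control arrays was 0.82 and 14.1% of genes were past 2-fold lower.

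The inhibitors of the list, 15 expressed of 18, had a median of 0.04 with the mimic and 0.09 with the antagomir, and 0 were past 2-fold in either. Between the control arrays 2 of the 15 were at least 2-fold lower on the NC antagomir array (4.7% of all expressed genes). NFKBIE, the inhibitor IkB-epsilon, had 448 with the NC antagomir against 1016 with the NC mimic (-1.18). NFKBID, a nuclear IkB protein, had 217 with the NC antagomir against 447 with the NC mimic (-1.04), where the median over its 3 probe sets was 1.51.

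The other targets of NF-kB, 28 expressed of 45, had a median of 0.38 with the mimic, close to the 0.35 of the 5 NF-kB subunits, with 23 of 28 above 0 (49.9% of all expressed genes) and 5 below (50.1%). C3, the central complement component, was past 2-fold higher, at 4011 with the miR-429 mimic against 1829.5 with the NC mimic (1.13). So was PLAU, urokinase, at 269 with the miR-429 mimic against 133 with the NC mimic (1.01), with 0.62 as the median of its probe sets. With the antagomir the same 28 had a median of -0.04, with 13 above 0 and 15 below, and C3 was 2872 with antagomir-429 against 1487 with the NC antagomir (0.95), the same sign as with the mimic. Between the control arrays their median was -0.27, with IER3, a stress-induced regulator of survival, at 9931 with the NC antagomir against 24163 with the NC mimic (-1.28).

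**Figure D5:**
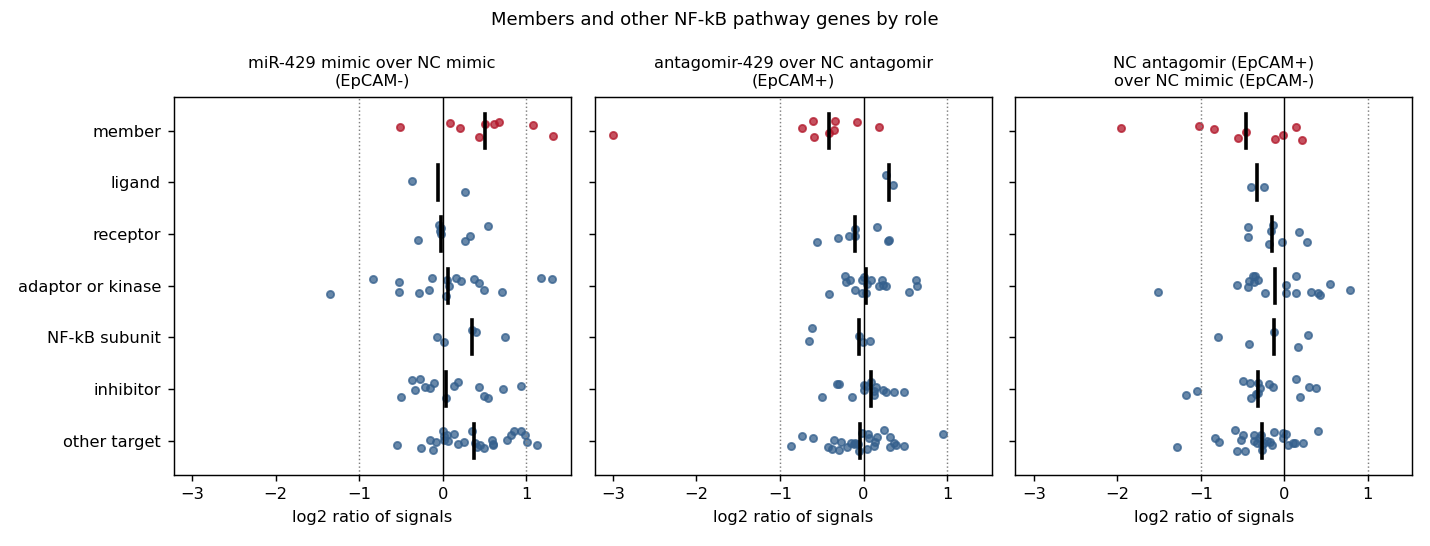
Log2 ratio of signals for the 9 measured genes (red) and the 76 other expressed pathway genes (blue) by role in the 3 comparisons, 1 point a gene, with black bars at the median of each role and dotted lines at 2-fold. The bars of the members lie at 0.51, -0.41 and -0.46, and that of the other targets at 0.38 with the mimic and at -0.04 with the antagomir.

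The genes whose pattern over the 4 arrays lay closest to the mean pattern of CXCL1, CXCL2, CXCL3 and CXCL8, by Euclidean distance of centred log2 signals among 8125 brighter genes, were INKA1, PGM2, HBP1, NR4A1 and EFNA3, at distances of 0.14 to 0.22. INKA1, the nearest, had 175 with antagomir-429 and 206 on the NC antagomir array, against 389 with the miR-429 mimic and 360.4 on the NC mimic array. NR4A1, an orphan nuclear receptor of the immediate-early response, had 778 with antagomir-429 and 937 on the NC antagomir array, against 1627 with the miR-429 mimic and 1516 on the NC mimic array. Like CXCL2, CXCL3 and CXCL8, each of the 5 was higher on both EpCAM-negative arrays than on both EpCAM-positive arrays. CXCL1 was not, at 73.5 with the miR-429 mimic against 104 on the NC antagomir array. The mean pattern is thus not that of all 4 chemokines. With 4 arrays this is a description only.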

How the data were processed

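Total RNA of 4 samples was labelled with a 3′ kit and measured on 1-colour arrays, per the labels' protocols. Deposited by the authors were log2 signals from MAS5, per the submitters' processing notes. Not given in the sources used here were its version, target level and detection calls. The log base was settled from the values: taken back to the linear scale, each array had a 2% trimmed mean of 500.1. No further scaling was applied. Of 54675 probe sets 62 are controls, and 41097 had 1 symbol, 1801 several and 11777 none in the platform annotation, which can be old. Entrez identifiers matched RefSeq (GRCh38.p14) for 41043, and no symbol changed. Ratios were taken on the log2 scale from 1 array over another and counted at 2-fold as measured, with folds against an array under the floor given as "at least". The number of arrays limits the precision. Counting was tested on simulated data. Work was done in Python 3.11.15 with pandas 2.3.3.

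The genes, lists, comparisons and alternatives were chosen with earlier results of these data known. Named by rule were the members, RELA, NFKB1 and EPCAM, pathway genes past 2-fold (up to 6 each way per comparison) and the 5 genes nearest in pattern to the CXCL chemokines. TNF, KRT8, KRT18, KRT19, AFP, albumin, APOA1, TTR, SERPINA1, APOB, PTPRC and the other leukocyte markers, COL1A1, IL1B, LTB and the chemokine receptors were named as markers or ligands of the fixed lists. Alternatives were median centring, quantile normalization, 16 signal units added before log2, the median over probe sets, a stricter filter at the 75th percentile (265.6), no filter and the control array of the other sort.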

Additional observations from a re-analysis of the deposited data

How the results depend on the processing

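No paired analysis was possible because each group had 1 array. A list median is said to move when it shifts by over 0.25 and a gene's ratio when it shifts by over the scatter of its signal bin. With median centring the median of all genes in the mimic comparison was -0.11 in place of -0.00 and 46.6% of genes past 2-fold were higher in place of 58.2%. The members past 2-fold higher there numbered 1 in place of 2, and their median 0.40 in place of 0.51. Of gene values, 6 of 68 moved in the mimic comparison, 9 of 68 in the antagomir comparison and 2 of 59 between the controls. The cause of the changes below was not tested, other than fewer or more genes entering.

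With the control array of the other sort the members' median was 1.11 with the mimic (6 at least 2-fold higher) and -0.84 with the antagomir (2 lower). With the median over probe sets 3 members were at least 2-fold lower with the antagomir. The stricter filter left 5 members, with 0 past 2-fold lower with the antagomir and between the controls, where their median was -0.12. With 16 units added, 1 was lower between the controls. The pathway median with the antagomir, 0.02, turned to -0.0161 with median centring, -0.0049 with the median over probe sets and -0.14 with the other control.

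All genes at least 2-fold higher and lower with the mimic numbered 692 and 496, with the antagomir 490 and 465, and between the controls 477 and 619. They were 146 and 36, 24 and 15, and 60 and 60 under the stricter filter, which leaves out dim genes by construction, and 2539 and 2248, 2226 and 2412, and 2264 and 2539 with no filter. With signals under the floor set to it, added after the data were seen, those that moved were 318 and 292 with the antagomir and 315 higher between the controls. Dim signals limit CXCL1, CCL20 and the second probe sets of CXCL8 and NFKBIA.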
